A study of Mus musculus with 2 samples.

Results

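Elastase-high cells are the bone marrow cells that made the RNA of neutrophil elastase (*Elane*) and proteinase 3 (*Prtn3*) in quantity but little RNA of the later secondary granules. They were chosen from the deposited matrices of unique molecular identifiers (UMIs, one per captured RNA molecule) by 3 limits. *Elane* and *Prtn3* together made up at least 0.2% of a cell's UMIs and hemoglobin genes under 1%, in barcodes with at least 200 genes detected. *Camp*, *Ngp*, *Ltf*, *Lcn2*, *S100a8* and *S100a9* together made up under 5%. They are called secondary granule genes here, a name that does not strictly hold for *S100a8* and *S100a9*. The limits held 835 of 9933 cells, 440 of 6271 in the WT and 395 of 3662 in the Cko. Bone marrow cells (BMCs) left after lysis of red blood cells came from the fore- and hindlimbs of C57BL6/J mice at postnatal day 21. They came from 1 mouse per genotype and were run on the 10x Genomics platform with the v2 chemistry for 3′ ends. The Cko lacked site-1 protease (S1P, gene *Mbtps1*) in the osterix lineage: its *Mbtps1* exon 2 was floxed and Cre, fused to GFP, was driven by the osterix (*Sp7*) promoter, which is active in bone-forming cells. The WT carried the floxed alleles without Cre. Because each genotype was 1 library from 1 mouse, no test between genotypes was possible, no p-value is given, and every interval covers counting error only.

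Neutrophil precursors fill their granules in waves. At the promyelocyte stage they make the azurophil (primary) granule proteins, which include the serine proteases elastase, proteinase 3 and cathepsin G and the enzyme myeloperoxidase, and they turn to secondary granule proteins at the myelocyte stage. Granulocytes and monocytes arise from shared progenitors that already make some of these proteases: C/EBPε (*Cebpe*) and GFI1 act on the granulocyte side, and IRF8 and KLF4 on the monocyte side. S1P is a Golgi protease that cleaves the membrane-bound transcription factors SREBP, which drives cholesterol synthesis genes, and ATF6, which drives chaperones of the endoplasmic reticulum (ER).

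The genes of *Elane* and *Prtn3* lie side by side, and the bases upstream of both, with those of *Ctsg* and *Nkg7* for comparison, are shown because these genes lead the results. *Elane* spans chr10:79886247-79888215 and *Prtn3* chr10:79874476-79883174, both on the plus strand of GRCm38 (GENCODE M21). The third elastase-like protease gene of these cells, *Prss57*, spans chr10:79781474-79790961 on the minus strand. *Ctsg* (chr14:56099881-56102574, minus strand), *Mpo* (chr11:87793581-87804413, plus strand), *Ms4a3* (chr19:11629496-11640851, minus strand) and *Nkg7* (chr7:43437073-43438249, plus strand) lie elsewhere. The stretches below are RefSeq sequence of GRCm38.p6, 5′ to 3′ on the gene's strand, starting 150 bases before the RefSeq start and ending before the first annotated exon base. Capitals mark GAGGAAG, a core that PU.1 is known to bind.
Elane, chr10:79886162-79886246, plus strand: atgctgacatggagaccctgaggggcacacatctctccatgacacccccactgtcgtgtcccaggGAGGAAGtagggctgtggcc
Prtn3, chr10:79879517-79879613, plus strand: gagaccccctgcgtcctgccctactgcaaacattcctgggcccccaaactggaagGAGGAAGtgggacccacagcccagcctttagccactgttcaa
Ctsg, chr14:56102575-56102724, minus strand: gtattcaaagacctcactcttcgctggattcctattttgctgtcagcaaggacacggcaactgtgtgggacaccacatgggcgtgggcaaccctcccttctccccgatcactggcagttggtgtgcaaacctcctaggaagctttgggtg
Nkg7, chr7:43436988-43437072, plus strand: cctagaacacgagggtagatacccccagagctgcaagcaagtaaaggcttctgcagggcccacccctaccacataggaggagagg
The RefSeq starts, at base 79886312 for *Elane* and 79879667 for *Prtn3*, lie downstream of the GENCODE starts given above. GAGGAAG began 85 bases before the RefSeq start of *Elane* and 95 bases before that of *Prtn3*, on the plus strand in both. On either strand it was present in 6.76% of 27025 windows of 150 bases before RefSeq starts, and of the 15 leading genes named below 13 had a window and 2, *Elane* and *Prtn3*, held it. The MYB core TAACNG, on either strand, was present in 11.9% of windows and in those of *Elane* and *Sdf2l1* among the 13. The *Elane* match, at position -20 from the RefSeq start, lay past the first annotated exon base and so is not in the stretch printed above. The C/EBP core TTGCNNAA was present in 5.48% of windows and in none of the 13. A match describes letters only, and binding was not measured.

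Among 16 protein-coding genes whose start lay within 100 kb of the *Elane* start, 9 were listed in the WT matrix and 8 in the Cko matrix. *Prss57*, *Prtn3* and *Elane* were 9.46-, 16.3- and 12.3-fold higher in WT elastase-high cells than in all other WT cells, and 6.07-, 10.4- and 9.55-fold higher in the Cko, with nothing added to the levels. The rule chose the cells on *Elane* and *Prtn3*, so their folds describe that choice. *Prss57* is a marker named along with them, and the contrast with the neighbours is no test. The other listed genes of the stretch were at most 2.40-fold higher (*Wdr18* in the Cko). *Ptbp1*, which encodes a splicing regulator, was 1.24- and 1.41-fold higher, and *R3hdm4* had 0.849 and 0.418 times its level in other cells. *Cfd*, the complement factor D gene that starts 4.606 kb beyond the *Elane* start, had no UMI in the 440 WT cells, which allows up to 0.541 UMIs per 1000000, and was not listed in the Cko.

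Both libraries were deep in these cells. The whole WT matrix held 56382459 UMIs and the Cko matrix 34447224. In sum 5547715 WT UMIs and 6412782 Cko UMIs fell in elastase-high cells, with a median of 12518.5 and 15645 UMIs per cell, against 6705 and 6831 in all other cells. The matrices listed 7181 and 6735 genes, 6001 of them in both, and each listed gene reached at least 4 UMIs in some cell, so genes of low level were left out before deposit. *Xist* was listed only in the Cko, at 887 CPM in elastase-high cells (CPM, a gene's UMIs per 1000000 UMIs of those cells), and the Y-linked *Ddx3y* and *Eif2s3y* only in the WT, at 30.3 and 47.4 CPM. The sex-linked genes thus differed along with the genotype, and sex and genotype cannot be told apart in any difference between the libraries. The libraries shared 28 barcode sequences. Hemoglobin genes held a median of 0.240% of UMIs in the WT and 0.0584% in the Cko elastase-high cells, and its part in the results was not tested. The deletion itself could not be checked: 3′ tags do not read exon 2 of *Mbtps1*, whose level was 38.6 CPM in WT and 36.8 CPM in Cko elastase-high cells, and *Sp7* was not listed.

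Elastase RNA in cells that do not make it, a measure of its free RNA in the droplets, was low. B cells were chosen for this by their own genes, with no limit on elastase. Of 762 WT and 576 Cko B cells, 1 and 0 reached 0.2% of UMIs from *Elane* and *Prtn3*, and their summed share was 0.00768% and 0.00391%. The count of 0 of 576 allows a share of up to 0.521%. With every cell thinned to 3000 UMIs, *Ms4a3*, a membrane protein gene of granulocyte and monocyte progenitors, had a UMI in 75.9% of WT and 78.5% of Cko elastase-high cells against 1.71% and 2.08% of B cells. The same shares were 43.0% and 41.3% against 0.787% and 0.868% for *Prss57*, and 58.6% and 50.4% against 2.49% and 1.22% for *Nkg7*, a granule membrane protein gene also known from killer lymphocytes. Without thinning, *Nkg7* had a UMI in 73.9% and 71.1% of elastase-high cells and in 4.86% and 3.47% of B cells. The low values hold for these genes only. The 6 secondary granule genes of the rule, which were not limited in B cells, summed to 15118 and 14841 CPM there. In elastase-high cells they summed to 7665 and 7573 CPM.

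The 0.2% limit cut a thin part of the distribution. Between 0.15 and 0.2% lay 25 WT and 24 Cko cells that met the other limits, and between 0.2 and 0.25% lay 22 and 12. The nearest cells on either side held 0.197 and 0.202% in the WT, and 0.1999 and 0.203% in the Cko. *Mpo* was 1290 CPM just outside and 1529 CPM just inside in the WT, and 1033 and 1200 CPM in the Cko, so cells on both sides of the limit carried it. The secondary granule limit removed more cells: 229 WT and 176 Cko cells met every other limit and exceeded 5%. Much of this sum was *S100a8*: in members with at least 2% elastase it was 11174 of 15491 CPM in the WT and 12118 of 17573 CPM in the Cko. Among the members the elastase share ran from 0.202 to 17.3% in the WT, with a median of 1.21%, and from 0.203 to 10.9% in the Cko, with a median of 1.23%.

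**Figure D1:**
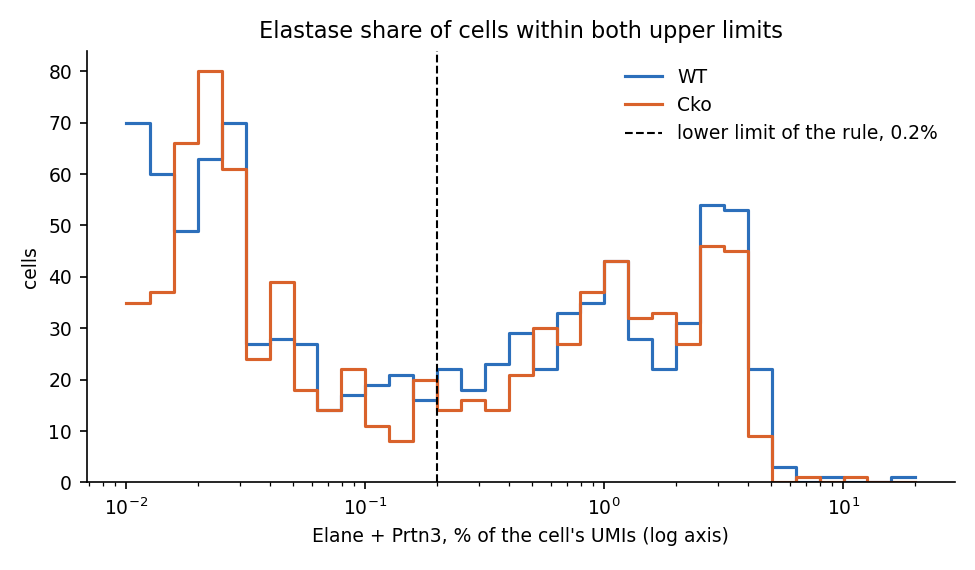
Number of cells (y axis) by the share of UMIs from *Elane* and *Prtn3* (x axis, %, log scale) among cells within both upper limits, WT blue and Cko orange; cells under 0.01% are not drawn. Right of the dashed limit at 0.2% both libraries show a broad group of cells near 1% and a second group near 3%.

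The share of elastase-high cells in the marrow depended on what it was divided by. They were 7.02% of all WT cells (440 of 6271, exact 95% interval 6.40 to 7.68) and 10.8% of all Cko cells (395 of 3662, 9.80 to 11.8), a ratio of 1.54 (1.34 to 1.77). Of the cells with under 1% hemoglobin they were 14.1% in the WT (440 of 3126, 12.9 to 15.3) and 12.4% in the Cko (395 of 3177, 11.3 to 13.6), a ratio of 0.883 (0.769 to 1.01). The higher Cko share was therefore not seen over cells with under 1% hemoglobin, where the interval of the ratio held 1. The hemoglobin content of the cells counted in the denominator differed between the libraries.

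The genes that set these cells apart from the rest of the marrow were those of the azurophil granule and of the ER. The rule chose the cells on 2 of these genes and every gene was read in the same cells, so these folds describe the choice and are no test. *Ctsg*, cathepsin G, was 29.6-fold higher than in all other cells in the WT and 22.1-fold in the Cko, with 10 CPM added to both levels, and *Mpo*, myeloperoxidase, was 20.3- and 14.4-fold higher. *Prtn3* was 15.9- and 10.2-fold, *Elane* 12.2- and 9.47-fold, *Ms4a3* 11.6- and 6.75-fold, *Nkg7* 10.4- and 5.22-fold and *Prss57* 7.28- and 5.08-fold higher. All 5 marker genes of the label were thus among the 15 with the largest fold. The other leaders were *Cst7* (cystatin F, an inhibitor of cathepsin C), the glutathione transferase *Gstm1*, the ER chaperones *Calr*, *Sdf2l1* and *Pdia6*, *Ramp1*, *Lgals1* and *Plac8*, with folds between 4.57 and 11.1. *Calr*, calreticulin, was 6.02- and 5.86-fold higher.

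Other classes of cells held some of the azurophil genes. Cells with at least 5% secondary granule UMIs (888 WT, 1385 Cko) still held *Mpo* at 1648 and 1016 CPM and *Ms4a3* at 661 and 449 CPM, while *Ctsg* was at 536 and 277 CPM there against 4101 and 4058 CPM in elastase-high cells. Cells with *Mpo* and *Ctsg* over 0.2% but elastase below it were few (35 and 32). In these, *Ctsg* was at 2064 and 2829 CPM and *Elane* at 119 and 88.0 CPM, and eosinophil and basophil genes summed to 24647 and 23470 CPM. Monocyte cells (237 and 423) and B cells held under 100 CPM of *Mpo* in both libraries. The azurophil list without *Elane* and *Prtn3* summed to 16258 and 16550 CPM in elastase-high cells and to 20241 and 24662 CPM in monocyte cells, where *Lyz2*, lysozyme, made up 18718 and 23297 CPM of it. ER chaperone genes summed to 5406 and 4233 CPM in elastase-high cells, against 3772 and 3908 CPM in low-elastase cells, 1628 and 995 CPM in secondary granule cells, 2060 and 1592 CPM in monocyte cells and 1808 and 1822 CPM in B cells.

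**Figure D2:**
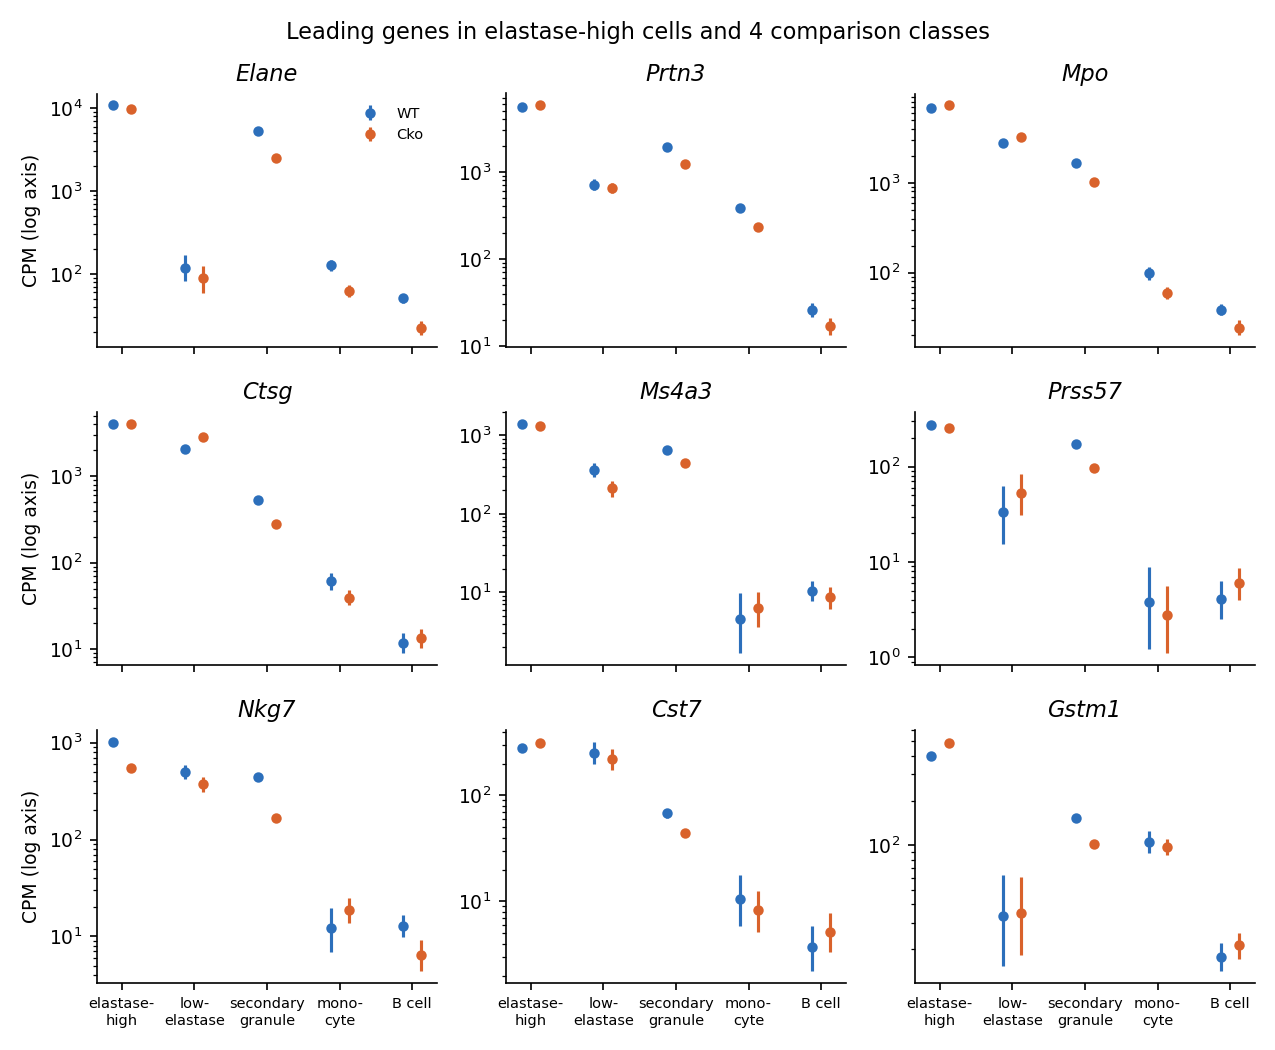
Level of 9 leading genes (CPM, log scale) in elastase-high cells, low-elastase *Mpo* and *Ctsg* cells, secondary granule cells, monocyte cells and B cells of the WT (blue) and Cko (orange); bars are exact 95% Poisson intervals of the summed UMIs. *Elane*, *Prtn3*, *Mpo*, *Ctsg*, *Ms4a3* and *Nkg7* are highest in the elastase-high cells of both libraries.

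The elastase-high cells were not uniform. They were divided by elastase share into 0.2 to 0.5% (91 WT, 64 Cko cells), 0.5 to 1% (90, 94), 1 to 2% (94, 108) and 2% or more (165, 129). From the lowest to the highest of these, *Mpo* went from 2565 to 10446 CPM in the WT and from 2691 to 11275 CPM in the Cko. *Nkg7* went from 93.5 to 2278 CPM and from 51.9 to 1321 CPM, and *Prss57* from 30.8 to 583 CPM and from 30.1 to 531 CPM. These azurophil genes were highest where elastase was highest in both libraries, and *Ms4a3* (11.4- and 13.9-fold), *Srgn*, the granule proteoglycan serglycin (7.82- and 8.49-fold), and *Serpinb1a*, an inhibitor of elastase (7.85- and 8.47-fold), were also higher at 2% or more than at 0.2 to 0.5%. Across cells, Spearman's rho with the elastase share was 0.84 in 440 WT and 0.83 in 395 Cko cells for *Mpo*, 0.87 and 0.89 for *Ms4a3* and 0.85 and 0.82 for *Nkg7*. All these values share a cell's total as divisor. The number of UMIs per cell had a rho of -0.05 and -0.08.

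The transcription factors of the 2 myeloid branches lay at opposite ends of this range. *Cebpe* was 74.6 CPM at 0.2 to 0.5% and 420 CPM at 2% or more in the WT, and 62.3 and 524 CPM in the Cko. *Gfi1*, a repressor needed for neutrophil formation, was 12.3- and 12.1-fold higher at the high end. *Irf8* went the other way, from 449 to 57.8 CPM in the WT and from 489 to 42.8 CPM in the Cko, though in both its highest value was at 0.5 to 1% (541 and 533 CPM). *Klf4* was 33.0- and 42.4-fold higher at the low end, *Ms4a6c*, a gene of monocytes, 18.3- and 13.9-fold, *F13a1*, the coagulation factor XIII subunit of monocytes, 17.2- and 12.2-fold, and *Csf1r*, the receptor of macrophage colony-stimulating factor, 6.43- and 10.3-fold. Not all azurophil genes were highest with elastase: *Lyz2* was 15.97- and 13.2-fold and *Ctsc*, cathepsin C, which activates the granule serine proteases, 6.14- and 5.97-fold higher at the low end, and *Cd34*, a progenitor surface gene, 10.3- and 9.33-fold.

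**Figure D3:**
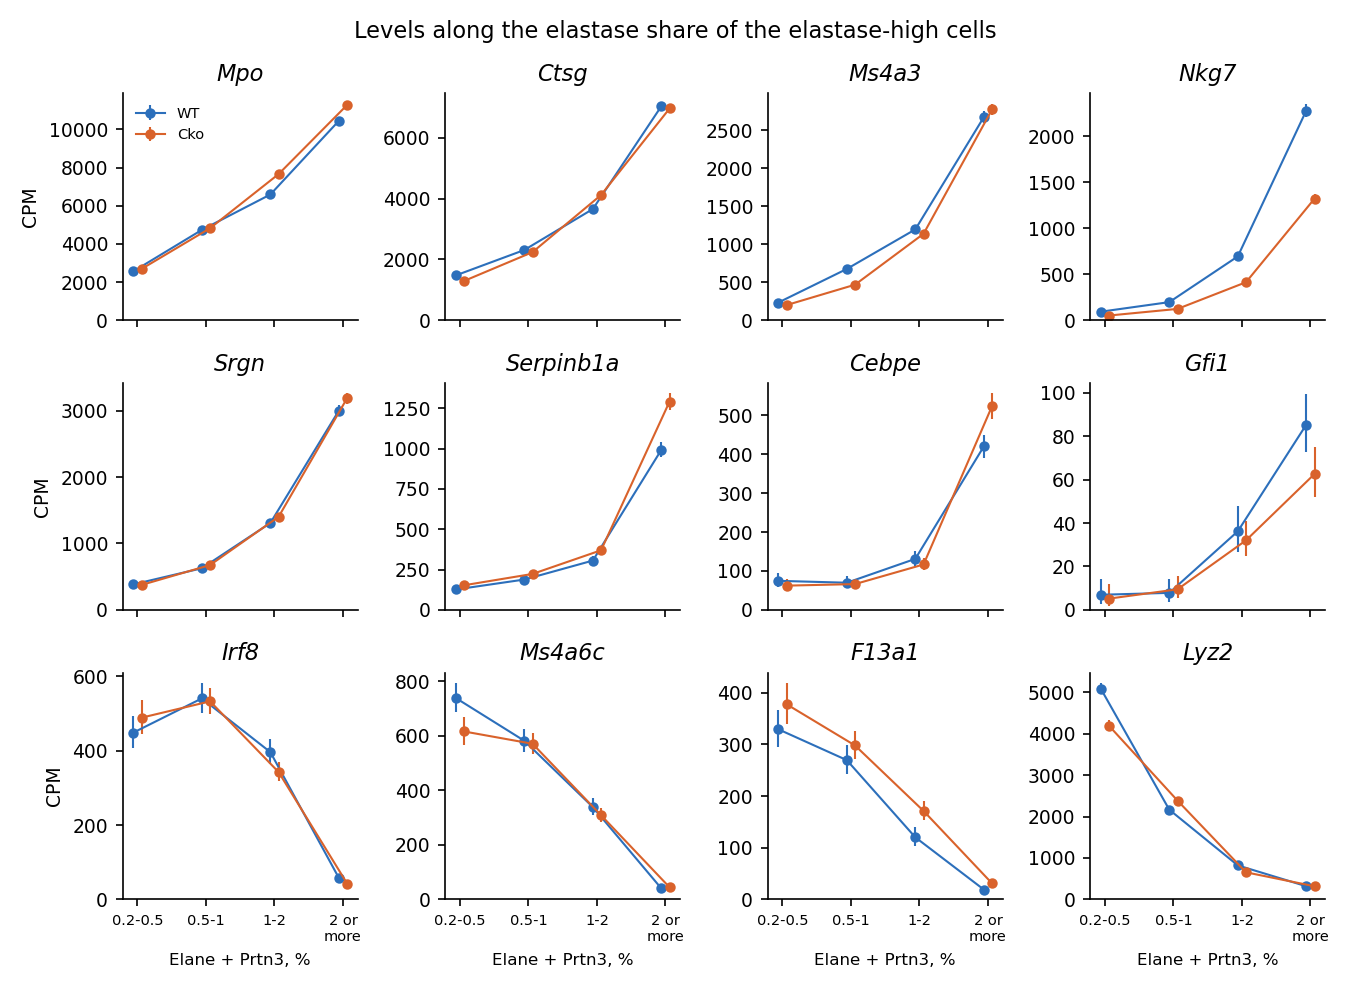
Level of 12 genes (CPM, linear scale from 0) in elastase-high cells divided by elastase share (x axis, % of UMIs), WT blue and Cko orange; bars are exact 95% Poisson intervals of the summed UMIs. The upper 8 genes are highest at 2% or more, *Irf8*, *Ms4a6c*, *F13a1* and *Lyz2* are lowest there, and *Nkg7* is lower in the Cko at each share.

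By factor, 170 WT cells (38.6%) had UMIs of *Cebpe* and none of *Irf8*, 145 (33.0%) of *Irf8* and none of *Cebpe*, 113 (25.7%) of both and 12 of neither. In the Cko these were 136 (34.4%), 131 (33.2%), 119 (30.1%) and 9 cells. After thinning to 3000 UMIs, cells with both made up 8.18% of WT and 6.33% of Cko elastase-high cells, so the share with both depended on depth. The median elastase share was 2.97% and 2.96% in *Cebpe*-only cells against 0.651% and 0.764% in *Irf8*-only cells. *Ms4a6c* was 27.3 and 29.2 CPM in *Cebpe*-only cells and 667 and 569 CPM in *Irf8*-only cells, and *Fcnb*, a ficolin gene of developing granulocytes, was 530 and 435 CPM against 80.6 and 51.4 CPM. The label promyelocyte-like matched the *Cebpe* end. It did not describe the *Irf8* end, where genes of monocyte progenitors were present, and *Klf4* was 1.46 and 0.975 CPM in *Cebpe*-only cells against 114 and 102 CPM in *Irf8*-only cells. Genes of monocyte progenitors were also present in cells with both factors, with *Klf4* at 129 and 106 CPM and *Ms4a6c* at 475 and 420 CPM. *Fcnb* was 200 and 198 CPM there. A list of 16 monocyte genes held at least 0.2% of UMIs in 314 of 440 WT and 321 of 395 Cko cells, but this count did not mark the *Irf8* end: *Ly6c2*, which is on the list, was 2009 and 2187 CPM in *Cebpe*-only cells as well. As a range, the log2 ratio of granulocyte to monocyte list UMIs (1 added to each) had a median of -1.58 in the WT and -1.78 in the Cko, with 131 and 124 cells within 1 of 0. The cells are therefore called here by their rule.

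Markers of other lineages were sparse. At least 0.2% of UMIs came from erythroid genes other than hemoglobin in 7 WT and 0 Cko cells, from B cell genes in 13 and 7, from eosinophil, basophil and mast cell genes in 5 and 2, from T and NK cell genes in 0 and 1, from dendritic cell genes in 0 and 4 and from macrophage genes in 0 and 1. The T and NK genes *Cd3g*, *Gzma*, *Trbc2* and *Ncr1* had no UMI in elastase-high cells of either library, nor did *Fcer1a* of basophils or *Ccr9* of plasmacytoid dendritic cells. A count of 0 allows up to 0.541 (WT) and 0.468 CPM (Cko), and up to 0.682% and 0.759% of cells with a UMI, which does not limit the share that express the gene. Scrublet called 8 WT and 0 Cko elastase-high cells doublets, and these were kept.

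Between genotypes, most genes of the elastase-high cells lay close together. Of 5050 genes with at least 100 UMIs, 4795 differed by less than 1.5-fold, 105 (2.08%) were at least 1.5-fold higher in the Cko and 150 (2.97%) at least 1.5-fold lower. The median log2 ratio of Cko over WT was -0.07, with 5th and 95th percentiles of -0.49 and 0.38. With that median set to 0, the counts became 134 higher and 111 lower, so which direction held more genes depended on the scaling.

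The azurophil granule genes differed by less than 1.5-fold between the libraries. *Elane* was 10831 CPM in the WT and 9753 CPM in the Cko (log2 -0.15, 95% interval -0.17 to -0.13), and *Prtn3* 5594 and 5787 CPM (0.05, 0.03 to 0.07). As the genes the cells were chosen by, they are given as a description. *Mpo* was 6744 and 7265 CPM (0.11, 0.09 to 0.13), *Ctsg* 4101 and 4058 CPM (-0.02, -0.04 to 0.01), *Ms4a3* 1405 and 1309 CPM (-0.10, -0.15 to -0.06) and *Prss57* 272 and 253 CPM (-0.11, -0.21 to -0.01). Of 14 azurophil granule genes other than *Elane* and *Prtn3*, 0 passed 1.5-fold in either direction, and their median log2 ratio was -0.04. With 2.08% and 2.97% of all genes past it, lists of this size would hold few such genes, and the counts of 0 say nothing particular to the list. The lowest was *Ctsc*, at 136 and 101 CPM. Of 9 cathepsin genes and of 6 NADPH oxidase genes, which make the oxidative burst, 0 passed 1.5-fold either.

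*Nkg7* was the exception among the marker genes. It was 1009 CPM (5599 UMIs) in the WT and 552 CPM (3540 UMIs) in the Cko, a log2 ratio of -0.87 (-0.93 to -0.81). It was lower in the Cko at each elastase share, with log2 ratios of -0.85, -0.67, -0.75 and -0.79 from the lowest to the highest share. It was also lower within *Cebpe*-only (-0.77), *Irf8*-only (-0.53) and double-positive cells (-0.71). In the 12 WT and 9 Cko cells with neither factor the log2 ratio was -0.35, with an interval of -0.74 to 0.04 that held 0. In secondary granule cells *Nkg7* was 438 and 168 CPM, in B cells 12.97 and 6.48 CPM, and in monocyte cells, where few UMIs were counted, 12.2 and 18.9 CPM. The lower *Nkg7* level of the Cko was thus seen at every elastase share and in each group with a UMI of *Cebpe* or *Irf8*. In secondary granule cells *Elane* and *Prtn3* together were lower in the Cko as well, at 7300 and 3717 CPM. The lower value there was therefore not particular to *Nkg7*.

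The transcription factors and lineage genes are given next. *Cebpe* was 205 and 215 CPM and *Irf8* 324 and 324 CPM, and of 15 transcription factors with at least 100 UMIs 0 passed 1.5-fold, again against 2.08% and 2.97% of all genes, with a median of 0.00. The widest were *Cebpa*, at 56.2 and 73.4 CPM (log2 0.39, 0.18 to 0.60), and *Gfi1*, at 41.1 and 31.3 CPM (-0.39, -0.67 to -0.11). Of 9 granulocyte genes 1, *Chil3*, passed 1.5-fold higher and 0 lower (median 0.01). Of 15 monocyte genes 1, the fibronectin gene *Fn1*, passed higher at 27.0 and 45.5 CPM and 0 lower (median 0.00). Of 7 stem and progenitor genes 1, the transcription factor gene *Sox4*, passed lower at 26.0 and 14.8 CPM and 0 higher (median -0.13).

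Genes that SREBP and ATF6 are known to drive were taken as lists. Of 23 cholesterol synthesis and transport genes, 7 were listed in both matrices and 5 had at least 100 UMIs. Of these 5, 3 were at least 1.5-fold lower and 0 higher, against 2.97% and 2.08% of all genes, with a median log2 ratio of -0.97. *Fdps*, farnesyl diphosphate synthase, was 250 and 108 CPM (log2 -1.21, -1.35 to -1.08), *Idi1*, isopentenyl diphosphate isomerase, 22.5 and 8.73 CPM (-1.37, -1.85 to -0.90) and *Stard4*, a sterol carrier, 18.4 and 9.36 CPM (-0.97, -1.46 to -0.50). *Ebp* and *Pmvk* stood at -0.11 and -0.24, and with at least 300 UMIs asked of each gene the median became -0.24. The difference in *Fdps* was not confined to elastase-high cells: it was 140 and 52.6 CPM in secondary granule cells, 186 and 42.5 CPM in monocyte cells and 50.2 and 24.4 CPM in B cells. Whether exon 2 was lost in these cells cannot be read from 3′ tags.

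*Calr*, *Sdf2l1* and *Pdia6* of the 15 leading genes belong to a list of 19 ER chaperone genes. Of the 19, 1, *Creld2* (101 and 60.7 CPM), was at least 1.5-fold lower and 0 higher, against 2.97% and 2.08% of all genes. A log2 ratio below 0 was found in 18 of the 19, but most of all genes lay below 0 too. The list median was -0.31, against a median of -0.07 and a 75th percentile of 0.08 over all genes. *Hsp90b1*, the ER form of HSP90, was 511 and 346 CPM (log2 -0.56, -0.65 to -0.48), *Calr* 1266 and 934 CPM (-0.44, -0.49 to -0.39), *Hspa5*, the chaperone BiP, 454 and 366 CPM (-0.31, -0.39 to -0.23) and *Xbp1*, a factor of the unfolded protein response, 163 and 121 CPM (-0.44, -0.58 to -0.30). *Ddit3*, the other side of 0, was 8.47 and 9.04 CPM. Summed over the list the log2 ratio was -0.35 in elastase-high cells, -0.71 in secondary granule cells, -0.37 in monocyte cells, 0.05 in low-elastase cells and 0.01 in B cells. In secondary granule cells other lists were lower in the Cko too. Genes of the nucleolus and ribosome assembly stood at -0.77 and those of ER translocation and glycosylation at -0.40, while NADPH oxidase genes stood at 0.20. In elastase-high cells, of 23 genes of ER translocation and glycosylation 0 passed 1.5-fold (median -0.08), a median close to that of all genes.

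Cell cycle genes passed 1.5-fold about as rarely as all genes, of which 2.08% were higher and 2.97% lower. Most of them lay below 0, as did most of all genes. Of 24 S phase genes 0 passed 1.5-fold and 21 lay below 0 (median -0.18). Of 25 genes of G2 and mitosis 1, the mitotic motor *Kif11* (49.8 and 32.1 CPM), passed lower and 23 lay below 0 (median -0.27). The median over all genes was -0.07 and the 75th percentile 0.08. *Mki67* was 160 and 127 CPM and *Top2a* 314 and 251 CPM. Of 20 genes of the nucleolus and ribosome assembly 0 passed (median -0.09).

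**Figure D4:**
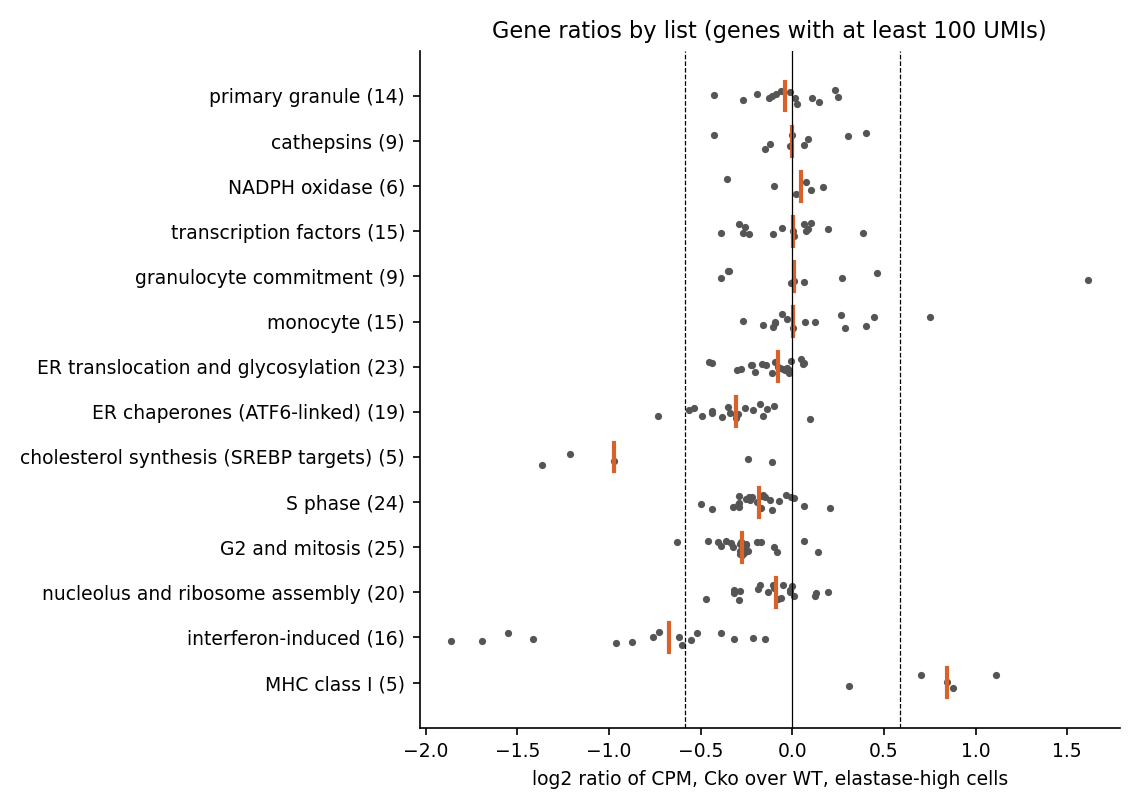
Log2 ratio of CPM, Cko over WT, in elastase-high cells for each gene with at least 100 UMIs of 14 lists (number of genes in brackets); orange bars are list medians and dashed lines mark 1.5-fold. The azurophil, cathepsin and factor lists centre near 0, the cholesterol and interferon-induced lists lie lower and MHC class I lies higher.

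Lists of interferon-induced and MHC class I genes were chosen after their values were seen, so their counts are no test. Of 44 interferon-induced genes, 25 were listed in both matrices and 16 had at least 100 UMIs. Of these 16, 10 were at least 1.5-fold lower in the Cko and 0 higher, against 2.97% and 2.08% of all genes, with a median of -0.67. Summed over the list the log2 ratio was -0.47 in elastase-high cells, -0.52 in low-elastase cells and -0.66 in monocyte cells. It was -0.37 in B cells and -0.05 in secondary granule cells. *Igtp*, an interferon-induced GTPase, was 28.3 and 7.80 CPM (log2 -1.86, -2.35 to -1.39), and *Zbp1*, a nucleic acid sensor, 17.7 and 5.46 CPM (-1.69, -2.29 to -1.12). MHC class I genes present peptides to T cells and are themselves interferon-responsive. Of 5 of them 4 were at least 1.5-fold higher in the Cko, against 2.08% of all genes, with a median of 0.84. *H2-D1* was 379 and 818 CPM (1.11, 1.04 to 1.19), *H2-K1* 182 and 335 CPM (0.88, 0.77 to 0.99) and *B2m*, the shared light chain, 953 and 1711 CPM (0.84, 0.80 to 0.89). *B2m* was 881 and 1561 CPM in secondary granule cells and 1830 and 2065 CPM in B cells.

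Of the 10 lowest ratios, 7 were genes of red cells or eosinophils. *Prg2*, eosinophil major basic protein, was 86.9 and 1.72 CPM, but 454 of its 482 WT UMIs came from 3 cells, and it had under 100 UMIs without the cells rich in markers of another lineage. *Hbb-bs*, *Hbb-bt*, *Hba-a1* and *Hba-a2* are hemoglobin genes whose share the rule capped, and *Hbb-bs* at 1264 and 334 CPM compared with 1550 and 458 CPM in B cells. *Car2*, a carbonic anhydrase of red cells and other types, was 115 and 14.2 CPM, and *Car1* 23.97 and 3.59 CPM. The log2 ratio of *Car2* was -3.02, and -2.05 without the cells called doublets. The remaining genes were the small nucleolar RNA host *Snhg3* (124 and 10.1 CPM in elastase-high cells, 106 and 10.2 CPM in B cells), the noncoding *Gm26917* (75.2 and 12.8 CPM) and the protease inhibitor *Serpina3g* (33.7 and 8.11 CPM).

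Of the 10 highest ratios, 6 were ribosomal protein gene copies, *Rps18-ps3*, *Gm10036*, *Rpl9-ps6*, *Gm9396*, *Rps10-ps1* and *Rpl7a-ps5*, whose reads cannot be told apart with certainty from those of their parent genes. *Rps18-ps3*, for instance, was 88.3 and 262 CPM. *Cap1*, an actin regulator, had the highest ratio at 12.3 and 66.7 CPM (log2 2.44, 2.07 to 2.84), and it stood at 18.9 and 99.2 CPM in B cells and 33.9 and 200 CPM in secondary granule cells. *BC100530*, a stefin A gene with close copies, was 10.8 and 36.6 CPM, against 32.1 and 182 CPM in B cells, while *Stfa1* was 16.2 and 19.5 CPM. Of 8 stefin A genes 3 had at least 100 UMIs, and of these 2 were at least 1.5-fold higher and 0 lower, against 2.08% and 2.97% of all genes. Summed, the 8 genes were 38.0 and 80.5 CPM in elastase-high cells and 79.7 and 447 CPM in B cells. *Chil3*, a chitinase-like protein of secondary granule stage cells, was 91.9 and 281 CPM, with 927 of its 1803 Cko UMIs in 10 cells. With cells thinned to 3000 UMIs, 16.6% of WT and 24.8% of Cko elastase-high cells had a *Chil3* UMI, against 11.4% and 17.9% of B cells. *Cd74*, the MHC class II invariant chain, was 8.47 and 34.5 CPM, with 177 of its 221 Cko UMIs in 10 cells. Its log2 ratio was 2.02, and 1.24 without the cells rich in markers of another lineage. *Prg2*, *Cd74* and *Chil3* thus rested in good part on a few cells.

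**Figure D5:**
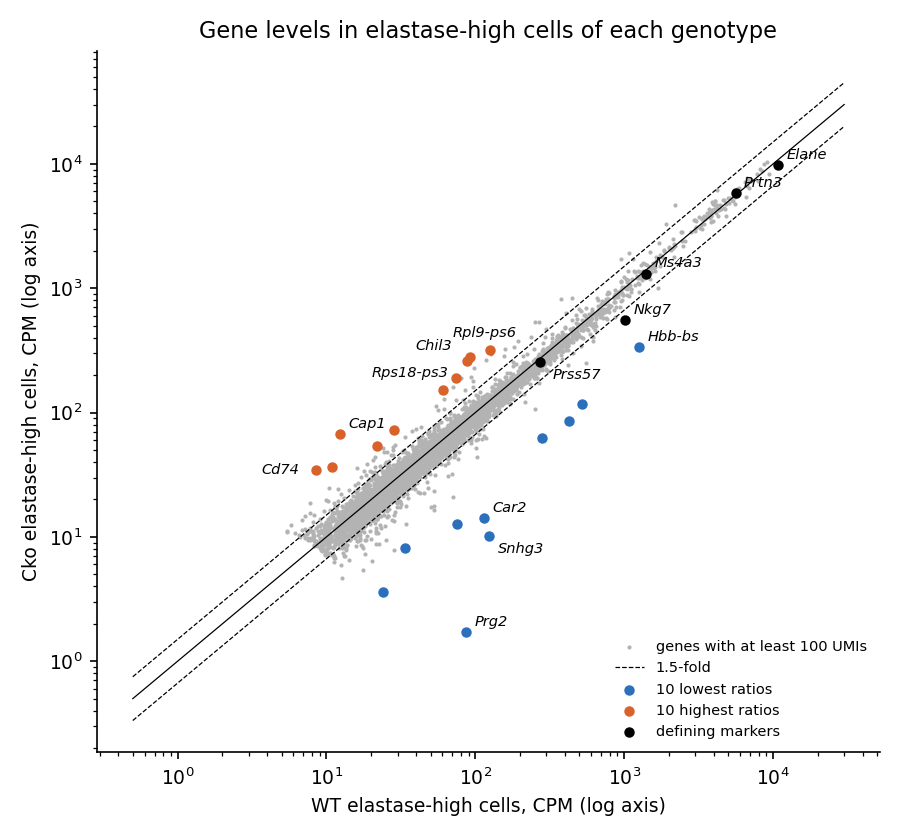
Level of each gene with at least 100 UMIs in WT (x axis) and Cko (y axis) elastase-high cells (CPM, log scales); the solid line marks equal levels, dashed lines 1.5-fold, black points the marker genes, blue and orange points the 10 lowest and 10 highest ratios. *Elane*, *Prtn3*, *Ms4a3* and *Prss57* lie within the dashed lines and *Nkg7* below the lower one.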

How the data were processed

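BMCs of 1 WT and 1 Cko mouse were sequenced on the 10x Genomics platform. Per the labels the submitters used Cell Ranger and GRCm38, with a Cell Ranger version not given in the sources used here. The files hold UMI counts per gene and barcode as deposited by the authors, whole numbers with no normalization. Barcodes with at least 200 genes were kept and the 3 limits of the report were applied. UMIs were summed over elastase-high cells of each library and divided by their total to give CPM. Genes listed in both matrices with at least 100 UMIs over both libraries were compared. Ratios carry exact conditional binomial intervals, levels exact Poisson intervals and shares exact (Clopper-Pearson) binomial intervals, all at 95%. The ratio step was run on simulated Poisson counts, the model that the intervals assume. That run checks the computation only and does not cover UMIs clumped in a few cells. Doublets were called with Scrublet (scanpy 1.11.5, expected rate 5%) and kept. For shares of cells with a UMI, cells were thinned to 3000 UMIs, which left out 0 elastase-high and 0 B cells. Members and gene lists were chosen with earlier results of these data known, and the division by *Cebpe* and *Irf8* was chosen after values were seen. Genes named were the markers, list genes, the 15 with the largest fold over other cells (at least 25% of cells with a UMI) and the 10 highest and 10 lowest ratios. The comparison classes were limited to under 1% hemoglobin, with *Mpo* and *Ctsg*, or B cell genes, at 0.2% or *Csf1r*, *Ccr2* and *Ms4a6c* at 0.1% of UMIs. Alternatives varied each limit, the doublets, the scaling and the UMI minimum. Intervals came from scipy 1.17.1, tables from pandas 2.3.3 with numpy 2.4.6 under Python 3.11.15, and plots from matplotlib 3.10.9.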

Additional observations from a re-analysis of the deposited data

Results flagged for a closer look

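*Prg2*, eosinophil major basic protein, differed between genotypes in opposite directions in 2 classes of cells: the log2 ratio of Cko over WT was -5.66 in elastase-high cells and 6.34 in secondary granule cells. The difference between these ratios was not tested. In elastase-high cells the WT UMIs were 482 in 10 cells and the Cko UMIs 11 in 6 cells. In secondary granule cells *Prg2* was 1.02 CPM in the WT and 82.9 CPM in the Cko.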

How the results depend on the processing

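The log2 ratio of the share of elastase-high cells, Cko over WT, was 0.62 of all cells. It was -0.18 of cells with under 1% hemoglobin, with an interval of -0.38 to 0.02 that held 0. Under the other limits tried the ratio lay between 0.54 and 0.70. Asking at least 300 UMIs of a gene left 69 genes higher and 60 lower, and no limit on UMIs gave 224 higher and 383 lower, against 105 and 150. Of 670 values of 38 named genes over 18 settings 615 moved by less than their counting error and 55 by more. None past 1.5-fold changed sign, but values near 0 did: *Ctsg* was 0.05 with the median of all genes set to 0, and *Cebpe* -0.10 with secondary granule genes under 2%. The 20 extreme genes stayed past 1.5-fold in the same direction in each setting that gave a value. With secondary granule genes under 2%, *Cd74* stood at 0.98 and *Chil3* at 1.12, against 2.02 and 1.61. The median of the cholesterol list ran from -1.21 to -0.24. Leaving out cells with other lineage markers and leaving out ribosomal genes were chosen after seeing the data. No paired analysis was possible because each genotype had 1 library. Depth limited the low genes: those not listed in a matrix could not be compared, and counting error is the only error the intervals cover.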

Other observations

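Cells that met the elastase limit but exceeded 5% secondary granule UMIs, 229 in the WT and 176 in the Cko, held both sets of granule genes. *Elane* was 14346 and 10840 CPM in these cells, *Mpo* 4376 and 4342 CPM and *Camp*, the cathelicidin gene of secondary granules, 45535 and 48494 CPM. *Cebpe* was 1033 and 1063 CPM and *Irf8* 27.7 and 40.1 CPM. *Nkg7* was 1101 CPM in the WT and 633 CPM in the Cko. With these cells the limit on secondary granule genes, which the rule set, separates cells that both carry elastase RNA.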
